A study of Mus musculus with 8 samples.

Results

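The comparison of Ctrl PIP with its vehicle DMSO rests on 4 of the 8 RNA-seq libraries of the series, 2 from cells kept with Ctrl PIP and 2 from cells kept with DMSO. They were chosen by their labels alone, and what follows describes every gene expressed in these cells, 16750 of 45777 listed gene IDs. All cells were primary CD8+ T cells of C57BL/6 mice, taken from lymph node and spleen and stimulated with antibodies to CD3 and CD28. They were cultured for 48 hours with Ctrl PIP, with DMSO, or with one of the other compounds of the series, EnPGC-1 and SGC-CBP30. The stimulation was therefore common to Ctrl PIP and DMSO cells, and no resting cells are among the 8 libraries. The labels give neither the dose of Ctrl PIP nor the DNA sequence it reads, and they give no age or number of mice. Nor do they tie a group's libraries to different mice or cultures, so that the spread behind each p-value is that of these libraries and could be technical.

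PIP stands for pyrrole-imidazole polyamide, a family of small synthetic molecules that bind in the minor groove of DNA and read its sequence through paired rings. Such molecules can carry a second chemical group to a chosen site, for instance a ligand of a bromodomain protein, and a polyamide directed elsewhere or lacking that group is a usual control for effects of the scaffold itself. CD8+ T cells stimulated through their receptor grow, divide, switch on glycolysis and mitochondrial biogenesis and start to make granzymes and cytokines. The question of the comparison is which of these programmes stood at the vehicle level in cells given the control polyamide.

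Total counts were 50545906 and 50734398 in Ctrl PIP 1 and 2, against 41314599 and 55167278 in DMSO 1 and 2. The label of the cells was met by their transcripts. Cd8a, which encodes a chain of the CD8 co-receptor, was at 927 and 904 CPM (a gene's share of the counts of its library, with library sizes scaled by TMM) in Ctrl PIP 1 and 2, against 1204 and 911 CPM in DMSO 1 and 2. Cd4 was at 6.80 and 7.05 CPM in Ctrl PIP 1 and 2, against 14.1 and 4.54 CPM in DMSO 1 and 2.

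Before any gene is read, the 2 DMSO libraries have to be set apart from each other. Over the 10199 genes with at least 5 CPM on average in the 4 libraries, the median absolute difference between Ctrl PIP 1 and Ctrl PIP 2 was 0.140 on the log2 CPM scale, and the one between DMSO 1 and DMSO 2 was 0.610. Between Ctrl PIP and DMSO it was 0.230 for Ctrl PIP 1 with DMSO 2, 0.402 for Ctrl PIP 1 with DMSO 1, 0.330 for Ctrl PIP 2 with DMSO 2 and 0.320 for Ctrl PIP 2 with DMSO 1. Every Ctrl PIP library was thus closer to each DMSO library than the DMSO libraries were to each other. Differences over 1 log2 unit were found for 0.667% of these genes between the Ctrl PIP libraries and for 26.5% between the DMSO libraries. For 6918 of the 10199 genes (67.8%), both Ctrl PIP libraries lay between DMSO 1 and DMSO 2. DMSO 1 was the higher DMSO library for 3318 of those genes and DMSO 2 for 3600. The deviation of a library from the mean of all 8 was related to transcript length across 9299 genes, with Spearman's rho of -0.53 and -0.20 in Ctrl PIP 1 and 2, against 0.56 and -0.61 in DMSO 1 and 2 (a description across genes, which are not independent). Rn18s-rs5, a pseudogene of ribosomal RNA, was at 2311 and 1799 CPM in Ctrl PIP 1 and 2, against 1119 and 10073 CPM in DMSO 1 and 2. In edgeR's test with offsets for trends with transcript length and GC content, 0 genes were called and 102 were at an unadjusted p under 0.05. Beyond such alternative fits, what part these differences have in the results below was not tested.

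**Figure D1:**
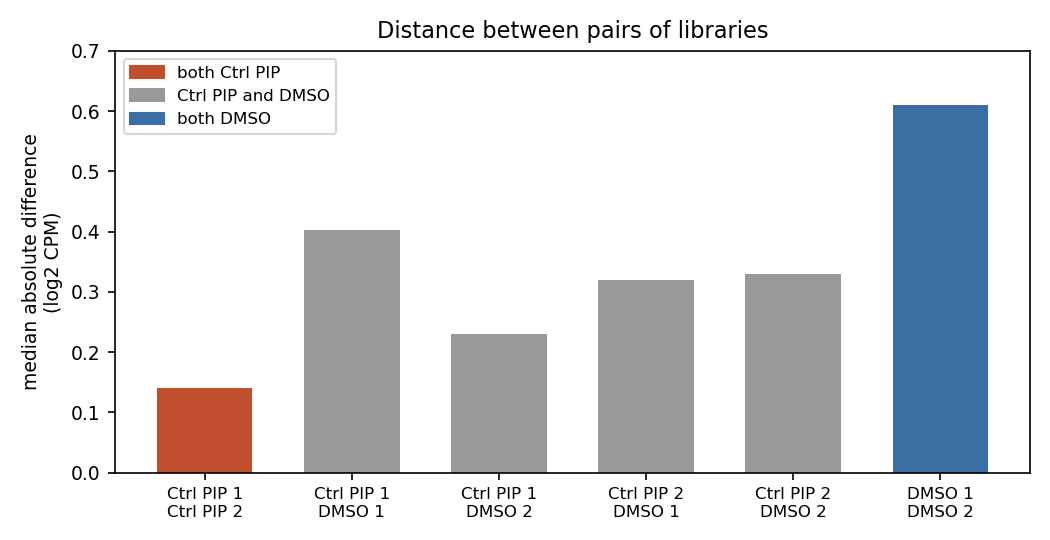
Each bar is the median absolute difference in log2 CPM between 2 libraries over 10199 genes with at least 5 CPM on average; the y axis is in log2 units. The Ctrl PIP pair has the lowest bar (0.140), the DMSO pair the highest (0.610), and the 4 pairs of a Ctrl PIP with a DMSO library lie between them.

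No gene passed the threshold in Ctrl PIP against DMSO. At an adjusted p of 0.05, edgeR's quasi-likelihood test with Benjamini-Hochberg adjustment over all genes called 0 of 16750 genes (0%), and the adjusted p of every gene was 1. At an unadjusted p under 0.05 there were 39 genes higher in Ctrl PIP (0.233% of those tested) and 61 lower (0.364%). Without any difference, 837.5 of 16750 genes would fall under that threshold on average. That average takes the spread as alike in all groups, which it was not here. Limma on the authors' deposited log2 values also called 0 genes, with 95 at an unadjusted p under 0.05. DESeq2's Wald test called 2 genes, with 222 at an unadjusted p under 0.05. Of the 100 genes at an unadjusted p under 0.05 in edgeR's test, 88 averaged under 5 CPM and 57 had 0 counts in both libraries of 1 group. At 5 CPM or more only 5 were higher and 7 lower. As edgeR's test called none, no gene below is called changed, and values are given as a description. An exact permutation test of 2 libraries against 2, which was not used here, cannot go below a two-sided p of 0.333.

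Both Ctrl PIP libraries were above both DMSO libraries for 1397 genes (8.34%) and below both for 1312 genes (7.83%). The median log2 fold change, Ctrl PIP minus DMSO, was -0.05 over all genes tested, with 6946 genes above 0 and 9778 below 0. At 5 CPM or more, 49 genes had a log2 fold change beyond 1, of which 6 were higher and 43 lower in Ctrl PIP. The groups did not overlap for 10 of these 49, 3 above and 7 below. Of all 10199 genes at 5 CPM or more, 7.26% lay above both DMSO libraries and 5.21% below both. For 37 of the 43 lower ones DMSO 1 was the highest of the 4 libraries, and for 30 of these 37 the Ctrl PIP libraries were between DMSO 1 and DMSO 2. Kmt2a, which encodes a histone methyltransferase and was chosen for display after its values were seen, is one of them. It was at 235 and 307 CPM in Ctrl PIP 1 and 2, against 1156 and 150 CPM in DMSO 1 and 2. Itga4, the alpha chain of an integrin used in homing, likewise stood at 138 and 160 CPM in Ctrl PIP 1 and 2, against 522 and 80.7 CPM in DMSO 1 and 2. In both genes the Ctrl PIP libraries lay below DMSO 1 and above DMSO 2.

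**Figure D2:**
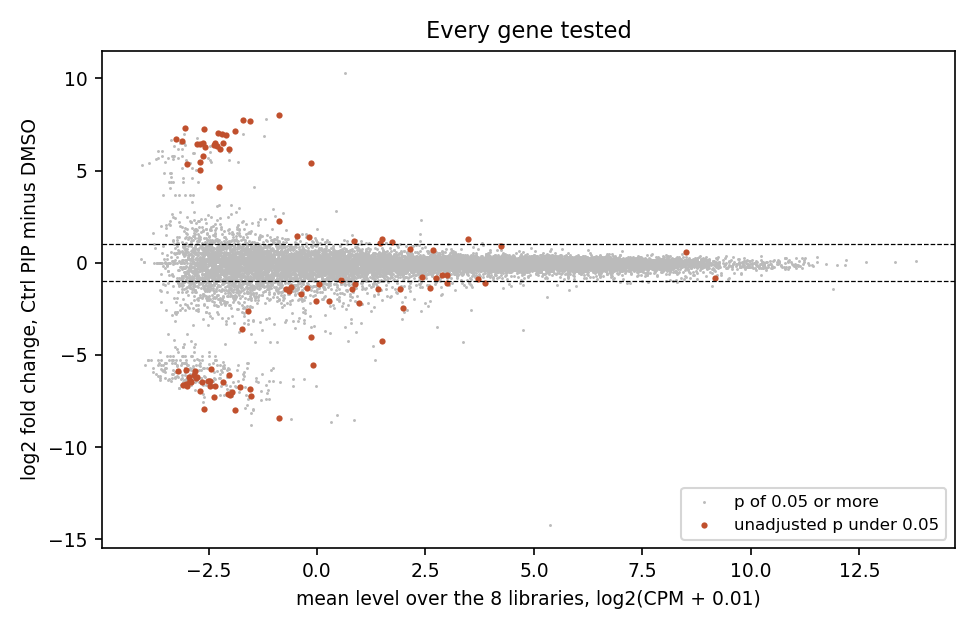
Each point is 1 of the 16750 genes tested; the x axis is its mean level as log2(CPM + 0.01) over the 8 libraries and the y axis its log2 fold change, Ctrl PIP minus DMSO, with dashed lines at 2-fold either way. The 100 genes at an unadjusted p under 0.05 are in red, most of them at low levels and in the separate clouds of genes with 0 counts in 1 group.

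The genes named on the higher side included an activity-induced transcription factor, a cytokine, nuclear RNAs and a redox enzyme. By the rule for naming genes these are the 10 of smallest unadjusted p at 5 CPM or more in the group on top, without overlap between the libraries. Their unadjusted p in edgeR's test ran from 0.0242 (Npas4) to 0.0636 (Tspan9). It was over 0.05 for Txnrd1, Tacc2, Sbk1 and Tspan9, and the 95% interval excluded 0 for Npas4 only. Npas4, an activity-dependent transcription factor studied mainly in neurons (chromosome 19, positions 4984353 to 5003439 of mm10), was at 7.40 and 7.19 CPM in Ctrl PIP 1 and 2, against 4.14 and 4.44 CPM in DMSO 1 and 2. Its log2 fold change was 0.77 (SE 0.26, 95% interval 0.03 to 1.498), and its levels in the EnPGC-1 and SGC-CBP30 libraries ran from 2.87 to 3.16 CPM, so that the Ctrl PIP pair was the highest of the 8. Xrcc3, a gene of homologous recombination, was at 8.26 and 8.38 CPM in Ctrl PIP 1 and 2, against 5.06 and 5.31 CPM in DMSO 1 and 2 (log2 fold change 0.68, SE 0.26). In both of these genes the libraries of a group were nearly equal. Lta, which encodes the cytokine lymphotoxin alpha (chromosome 17, positions 35203165 to 35205578), was at 22.4 and 42.5 CPM in Ctrl PIP 1 and 2, against 19.02 and 15.3 CPM in DMSO 1 and 2 (0.92, SE 0.35). Here Ctrl PIP 2 stood far above the other 3 libraries. Txnrd1, cytosolic thioredoxin reductase and a target of NRF2, was at 149 and 222 CPM in Ctrl PIP 1 and 2, against 120 and 118 CPM in DMSO 1 and 2 (0.64, SE 0.27).

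The nuclear RNAs among the higher genes are non-coding transcripts. Neat1, the scaffold RNA of paraspeckles (chromosome 19, positions 5824708 to 5845480), was at 305 and 396 CPM in Ctrl PIP 1 and 2, against 240 and 219 CPM in DMSO 1 and 2 (log2 fold change 0.61, SE 0.25). Rpph1, the RNA component of RNase P, was at 13.5 and 30.7 CPM in Ctrl PIP 1 and 2, against 6.49 and 11.8 CPM in DMSO 1 and 2 (1.27, SE 0.47). Rpph1 carries no poly(A) tail and the libraries were made by poly(A) selection, so its count also depends on that step. The other 4 were Moap1, a BAX-binding protein (1.14, SE 0.47), Tacc2, a centrosomal protein (0.52, SE 0.23), the kinase gene Sbk1 (0.39, SE 0.18) and the tetraspanin gene Tspan9 (0.87, SE 0.39).

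On the lower side the 10 genes included an enzyme of lymphoid precursors, genes used by antigen-presenting cells, an immediate-early gene and a mitochondrial ribosomal RNA. D330041H03Rik, a long non-coding RNA, had the smallest p of the named genes. It was at 5.14 and 4.62 CPM in Ctrl PIP 1 and 2, against 9.23 and 11.5 CPM in DMSO 1 and 2, a log2 fold change of -1.09 (SE 0.30, 95% interval -1.93 to -0.24). Dntt, the terminal transferase that adds bases at antigen-receptor junctions in precursors (chromosome 19, positions 41029275 to 41059525), was at 10.7 and 6.94 CPM in Ctrl PIP 1 and 2, against 22.7 and 15.03 CPM in DMSO 1 and 2 (-1.10, SE 0.33). Its groups did not overlap, although the libraries within each group also stood apart. Fos, the AP-1 subunit induced within minutes of receptor signalling, was at 2.52 and 2.29 CPM in Ctrl PIP 1 and 2, against 9.15 and 3.99 CPM in DMSO 1 and 2 (-1.45, SE 0.53). Without DMSO 1 the log2 fold change of Fos was -0.71. The mitochondrial small ribosomal RNA mt-Rnr1 (positions 70 to 1024 of the mitochondrial genome) was at 431 and 350 CPM in Ctrl PIP 1 and 2, against 744 and 632 CPM in DMSO 1 and 2 (-0.82, SE 0.29).

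Irf5 and S100a6 on the same side are genes expressed strongly by myeloid and B cells and by many activated cells. Irf5, an interferon regulatory factor, was at 7.02 and 5.16 CPM in Ctrl PIP 1 and 2, against 9.80 and 11.9 CPM in DMSO 1 and 2 (log2 fold change -0.83, SE 0.28). S100a6, a calcium-binding protein, was at 15.3 and 9.56 CPM in Ctrl PIP 1 and 2, against 20.1 and 25.7 CPM in DMSO 1 and 2 (-0.88, SE 0.32). Wdfy4, needed for cross-presentation in dendritic cells, was at 1.34 and 1.06 CPM in Ctrl PIP 1 and 2, against 10.7 and 2.61 CPM in DMSO 1 and 2 (-2.46, SE 0.89), so that DMSO 1 was far above the rest. Its value was -1.10 without DMSO 1. Rsc1a1 rested in the same way on DMSO 2 (0.0800 and 0.559 CPM in Ctrl PIP 1 and 2, against 0.999 and 11.2 CPM in DMSO 1 and 2). Trim17, a ubiquitin ligase (-1.38, SE 0.47), and Prkra, an activator of the kinase PKR (-0.77, SE 0.31), completed the 10.

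**Figure D3:**
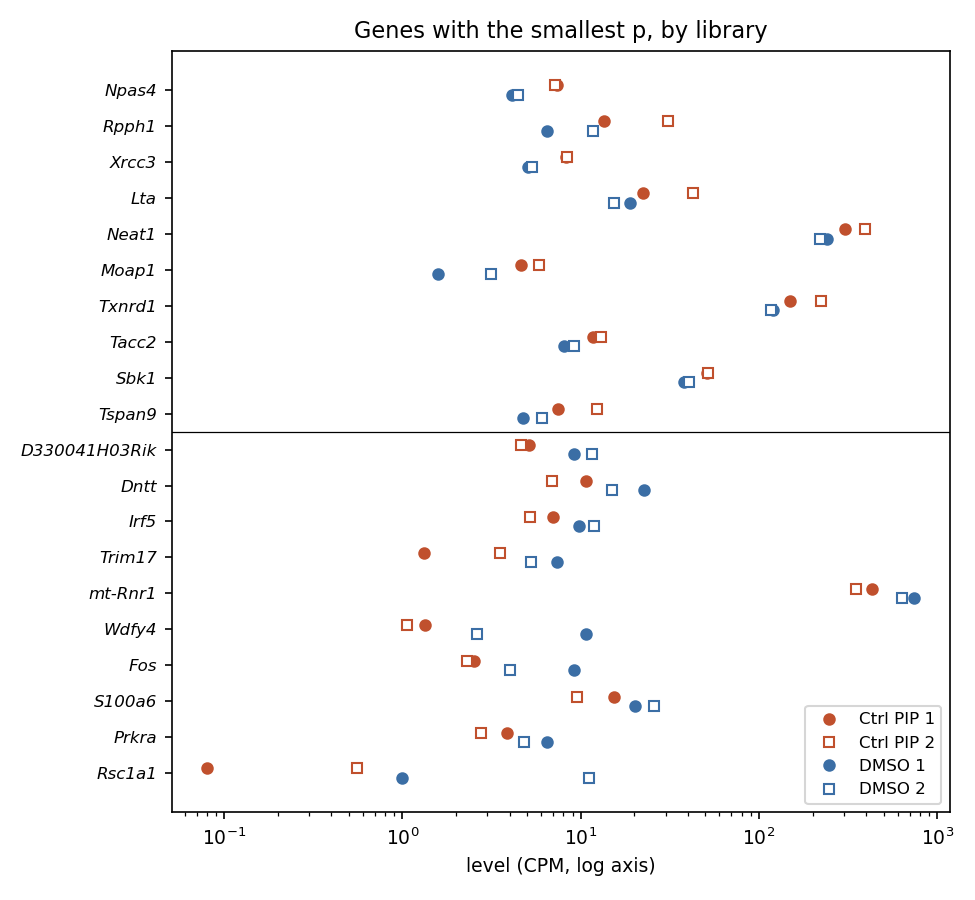
Levels in CPM (log axis) of the 10 genes of smallest unadjusted p that were higher in Ctrl PIP (upper block) and the 10 that were lower (lower block), with 1 symbol per library. The groups do not overlap in any of these genes because the rule for naming them asks for it; the gap between the groups is wide and even in Npas4 and Xrcc3 and rests on 1 library in Lta, Wdfy4 and Rsc1a1.

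Of Ctrl PIP and DMSO, 1 group had at least 20 counts in both libraries and the other 0 in both for Cdv3-ps and Gm38960 only. Cdv3-ps, a pseudogene on chromosome 14 (positions 43120918 to 43126011), had 27 and 28 counts in Ctrl PIP 1 and 2 and 0 in both DMSO libraries, and was at least 8.27-fold higher in Ctrl PIP against a floor of 3 counts per library. In the EnPGC-1 and SGC-CBP30 libraries it had 0, 20, 22 and 28 counts. Gm38960, a long non-coding RNA on chromosome 11 (positions 96492367 to 96540096), had 0 counts in both Ctrl PIP libraries and 30 and 26 counts in DMSO 1 and 2, and was at least 10.4-fold lower in Ctrl PIP against the same floor. It also had 0 counts in all EnPGC-1 and SGC-CBP30 libraries. The floor covers counting error only. Both genes called by DESeq2 alone, named after their values were seen, came from single libraries. Gm15564, a long non-coding RNA, had 0 counts in both Ctrl PIP libraries, against 0 in DMSO 1 and 4907 in DMSO 2, and DESeq2 gave it an adjusted p of 0.00345. Gm7030, a gene of the major histocompatibility complex region with close relatives, had 0 and 322 counts in Ctrl PIP 1 and 2, against 0 in both DMSO libraries, and DESeq2 gave it an adjusted p of 0.0174. No source used here gives the strand setting or annotation of the counting, so counts of pseudogenes, overlapping genes and close relatives such as these are uncertain.

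The interval of a fold change says how much of the transcriptome was held close to the vehicle level. For 5714 genes (34.1%) the 95% interval of the log2 fold change lay within 2-fold either way. Among genes at 5 CPM or more it did so for 5612 of 10199 (55.0%), and within 1.5-fold for 869 (8.52%). The median half-width of the interval was 0.81 log2 units at 5 CPM or more. These intervals take their spread from all 8 libraries; with only the 4 libraries of Ctrl PIP and DMSO, 150 genes had an interval within 2-fold. For the remaining genes the interval crossed the 2-fold line on at least 1 side, so that a change of that size was not bounded there. Ctla4, with an interval of -1.19 to 0.22, is an example of a gene that crossed it on the lower side only.

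Of the listed pathway genes held within 2-fold, those of highest level were mitochondrial transcripts, a chaperone, T cell genes and a subunit of ATP synthase, among others. COX1, a mitochondrially encoded subunit of cytochrome oxidase, was at 9059 and 9552 CPM in Ctrl PIP 1 and 2, against 10371 and 7995 CPM in DMSO 1 and 2 (log2 fold change 0.02, SE 0.29). Hspa8, the constitutive HSP70 chaperone, was at 2607 and 2748 CPM in Ctrl PIP 1 and 2, against 2257 and 2664 CPM in DMSO 1 and 2 (0.12, SE 0.29). ATP6, ND4, Cd8a, Atp5a1 and Cd8b1 were also among them, with log2 fold changes of 0.28, 0.13, -0.21, 0.10 and -0.20 in that order. The Ctrl PIP values of COX1 lay within the DMSO range.

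**Figure D4:**
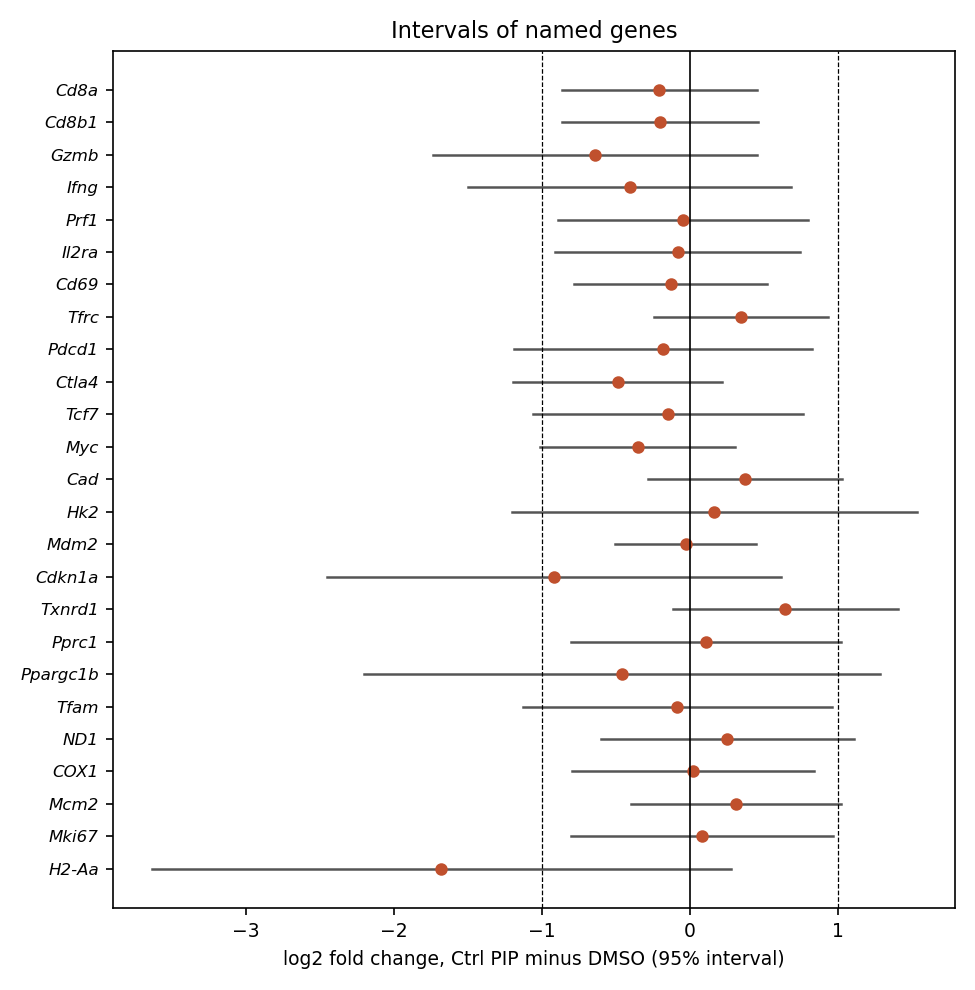
Log2 fold changes, Ctrl PIP minus DMSO, of named genes with their 95% intervals (bars); dashed lines mark 2-fold either way. The intervals of Cd8a, Cd69, Mdm2, COX1 and Mki67 lie inside the dashed lines, that of Mdm2 being the narrowest shown, while those of H2-Aa, Cdkn1a and Ppargc1b extend well outside them.

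Most genes of T cell identity and of killing had a log2 fold change below 0, as did 9778 of all 16750 genes tested. None of these list members passed the test. In the identity list 13 of 15 members were below 0, with a median log2 fold change of -0.16 beside -0.05 over all genes tested. The median of the identity list was -0.09 without Ctrl PIP 2, -0.10 without DMSO 1 and -0.07 without DMSO 2. Held within 2-fold were 11 of the 15 (73.3%), beside 34.1% of all genes and 55.0% of those at 5 CPM or more. Lck, the kinase that starts receptor signalling, was at 682 and 662 CPM in Ctrl PIP 1 and 2, against 774 and 698 CPM in DMSO 1 and 2 (-0.13, SE 0.21). Of 21 effector molecules 18 were below 0, and 6 were below both DMSO libraries, beside 7.83% of all genes. The median of this list was -0.24. It was -0.28 without Ctrl PIP 1, -0.11 without Ctrl PIP 2, -0.40 without DMSO 1 and -0.08 without DMSO 2. Gzmb, the granzyme that cleaves caspases in target cells, was at 272 and 182 CPM in Ctrl PIP 1 and 2, against 220 and 490 CPM in DMSO 1 and 2 (-0.64, 95% interval -1.74 to 0.45). Without DMSO 2 its value was 0.05, so its direction rested on that library. Gzma, another granzyme, was at 9.46 and 6.28 CPM in Ctrl PIP 1 and 2, against 13.1 and 12.6 CPM in DMSO 1 and 2 (-0.71, SE 0.32). Prf1, perforin, was at 24.9 and 23.9 CPM in Ctrl PIP 1 and 2, against 27.8 and 22.6 CPM in DMSO 1 and 2, and was held within 2-fold. Ifng, interferon gamma, was at 6.36 and 9.15 CPM in Ctrl PIP 1 and 2, against 12.6 and 8.02 CPM in DMSO 1 and 2.

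No activation gene, inhibitory receptor or effector-fate factor passed the test. Among 29 activation and costimulation genes the median was -0.07 (-0.11 without DMSO 1 and 0.13 without DMSO 2), with 10 above 0 and 19 below 0. Of all 16750 genes tested, 6946 were above 0 and 9778 below 0. Held within 2-fold were 12 of the 29 (41.4%), beside 34.1% of all genes and 55.0% of those at 5 CPM or more. Il2ra, the alpha chain of the interleukin-2 receptor, was at 83.2 and 121 CPM in Ctrl PIP 1 and 2, against 132 and 84.3 CPM in DMSO 1 and 2 (log2 fold change -0.08, SE 0.30, and 0.29 without DMSO 1). Tfrc, the transferrin receptor that feeds dividing cells with iron, was at 346 and 393 CPM in Ctrl PIP 1 and 2, against 292 and 289 CPM in DMSO 1 and 2 (0.35, SE 0.21). Cd69, an early activation marker, was at 48.7 and 51.2 CPM in Ctrl PIP 1 and 2, against 61.5 and 47.9 CPM in DMSO 1 and 2. Of 18 inhibitory receptors and exhaustion factors 15 were below 0, and 2 of them, Ctla4 and Entpd1, were below both DMSO libraries, as were 7.83% of all genes. The median of this list was -0.28, and it was -0.70 without Ctrl PIP 1, -0.05 without Ctrl PIP 2, -0.24 without DMSO 1 and -0.06 without DMSO 2. Ctla4, the receptor that competes for CD28 ligands, was at 299 and 237 CPM in Ctrl PIP 1 and 2, against 440 and 313 CPM in DMSO 1 and 2 (-0.49, SE 0.25, and -0.20 without DMSO 1). Pdcd1, which encodes PD-1, was at 22.1 and 15.03 CPM in Ctrl PIP 1 and 2, against 15.003 and 27.1 CPM in DMSO 1 and 2 (-0.18, SE 0.36, and 0.31 without DMSO 2).

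Effector-fate factors had a median of -0.39, with 14 of 15 below 0, beside 9778 of all 16750 genes tested. Prdm1, which encodes Blimp-1, was at 2.46 and 2.37 CPM in Ctrl PIP 1 and 2, against 6.56 and 2.67 CPM in DMSO 1 and 2, and the excess was in DMSO 1. Without DMSO 1 the median of this list was -0.03, and without DMSO 2 it was -0.63. The naive and memory factors lay between the DMSO libraries for 16 of 20 members, beside 57.6% of all genes and 67.8% at 5 CPM or more. Tcf7, the transcription factor TCF-1 of naive and stem-like cells, was at 1296 and 1386 CPM in Ctrl PIP 1 and 2, against 1929 and 1041 CPM in DMSO 1 and 2. The median of that list was -0.17 with both DMSO libraries, 0.33 without DMSO 1 and -0.48 without DMSO 2.

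PGC-1 coactivators, after which EnPGC-1 is named, drive mitochondrial biogenesis, and their level in cells given the control polyamide is the reference point for that compound. Ppargc1a, which encodes PGC-1 alpha, had 0 counts in both Ctrl PIP libraries, against 14 in DMSO 1 and 0 in DMSO 2, too few for a fold change to be read. Ppargc1b, PGC-1 beta, was at 11.8 and 15.6 CPM in Ctrl PIP 1 and 2, against 27.2 and 10.6 CPM in DMSO 1 and 2 (log2 fold change -0.46, 95% interval -2.20 to 1.29). Its sign turned without DMSO 1 (0.40). Pprc1, the PGC-1-related coactivator, was at 63.6 and 70.0 CPM in Ctrl PIP 1 and 2, against 56.9 and 67.0 CPM in DMSO 1 and 2 (0.11, SE 0.33). In the whole list of 21 biogenesis genes the median was -0.02 (-0.06 without DMSO 1 and 0.09 without DMSO 2). Held within 2-fold were 16 of the 21 (76.2%), beside 34.1% of all genes and 55.0% of those at 5 CPM or more. Tfam, which packages mitochondrial DNA, was at 89.6 and 71.8 CPM in Ctrl PIP 1 and 2, against 54.3 and 117 CPM in DMSO 1 and 2, again between them.

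The 13 protein-coding genes of mitochondrial DNA were the one metabolic list that kept a positive median under all 16 alternatives. In this list 12 of 13 were above 0 and 5 lay above both DMSO libraries, beside 8.34% of all genes, with a median of 0.25 that was 0.14 with length and GC offsets. ND2, a complex I subunit, was at 1386 and 1283 CPM in Ctrl PIP 1 and 2, against 1168 and 943 CPM in DMSO 1 and 2 (0.34, SE 0.28). None of the 13 passed the test, and the summed level of the list was 26085 and 25857 CPM in Ctrl PIP 1 and 2, against 24666 and 22582 CPM in DMSO 1 and 2. The mitochondrial ribosomal RNA mt-Rnr1, described above, lay on the other side of 0.

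In the lists of nuclear genes of respiration, ribosomes and glycolysis the Ctrl PIP libraries mostly stood between the DMSO libraries. All 36 cytosolic ribosomal protein genes lay between DMSO 1 and DMSO 2, as did 51 of 54 nuclear respiratory chain genes, 45 of 47 mitochondrial ribosomal protein genes and 19 of 24 glycolysis genes, where 57.6% of all genes tested did. The median of the cytosolic ribosomal protein genes was -0.18 with both DMSO libraries, -0.60 without DMSO 1 and 0.44 without DMSO 2. For glycolysis the median was 0.04, and it was -0.41 without DMSO 1 and 1.01 without DMSO 2. Hk2, the hexokinase that rises in activated T cells, was at 59.4 and 50.3 CPM in Ctrl PIP 1 and 2, against 24.2 and 73.6 CPM in DMSO 1 and 2. Of the 33 lists, 22 had medians of opposite sign without DMSO 1 and without DMSO 2.

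Genes of the cell cycle were mostly above 0 with both DMSO libraries, beside 6946 of all 16750 genes tested. No cell cycle gene passed the test. In the mitosis list 30 of 33 were above 0 and 11 of 33 lay above both DMSO libraries, beside 8.34% of all genes, with a median of 0.22. Without DMSO 1 that median was -0.03, and without DMSO 2 it was 0.70. Foxm1, a transcription factor of mitotic genes, was at 120 and 114 CPM in Ctrl PIP 1 and 2, against 84.7 and 96.4 CPM in DMSO 1 and 2 (log2 fold change 0.37, SE 0.36). Mki67, the proliferation marker Ki-67, was at 654 and 731 CPM in Ctrl PIP 1 and 2, against 680 and 628 CPM in DMSO 1 and 2 (0.08, SE 0.32) and was held within 2-fold. Among DNA replication genes 36 of 37 were above 0 (median 0.23), but the median was -0.19 without DMSO 1 and 0.90 without DMSO 2. Mcm2, a subunit of the replicative helicase, was at 225 and 234 CPM in Ctrl PIP 1 and 2, against 151 and 220 CPM in DMSO 1 and 2 (0.31, SE 0.26, and 0.08 without DMSO 1). Myc, the transcription factor of growth, was at 153 and 124 CPM in Ctrl PIP 1 and 2, against 147 and 208 CPM in DMSO 1 and 2 (-0.35, SE 0.24, and -0.08 without DMSO 2). Cad, which starts pyrimidine synthesis, was at 208 and 257 CPM in Ctrl PIP 1 and 2, against 175 and 184 CPM in DMSO 1 and 2 (0.37, SE 0.24).

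No gene of the DNA damage, interferon, stress or cell death lists passed the test. Of 35 p53 targets and DNA damage genes 24 were below 0, beside 9778 of all 16750 genes tested. The median of this list was -0.12. It was -0.14 without Ctrl PIP 1, -0.04 without Ctrl PIP 2, -0.13 without DMSO 1 and -5.35e-04 without DMSO 2. Held within 2-fold were 16 of the 35 (45.7%), beside 34.1% of all genes and 55.0% of those at 5 CPM or more. Mdm2, the p53 target that degrades p53, was at 77.6 and 82.3 CPM in Ctrl PIP 1 and 2, against 87.3 and 75.9 CPM in DMSO 1 and 2 (log2 fold change -0.03, 95% interval -0.51 to 0.45). Cdkn1a, the p53 target p21, was at 12.6 and 5.09 CPM in Ctrl PIP 1 and 2, against 11.6 and 21.8 CPM in DMSO 1 and 2 (-0.92, SE 0.55, and -0.39 without DMSO 2). The interval of Mdm2 leaves room for at most a 1.5-fold change either way, whereas that of Cdkn1a does not bound one. Parp1, which senses strand breaks, was at 192 and 221 CPM in Ctrl PIP 1 and 2, against 171 and 164 CPM in DMSO 1 and 2 (0.30, SE 0.19).

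Of 34 interferon-stimulated and nucleic-acid-sensing genes 28 were below 0, beside 9778 of all 16750 genes tested, and the median of the 34 was -0.23. Without DMSO 1 that median was 0.02, and without DMSO 2 it was -0.31. It was -0.43 without Ctrl PIP 1 and -0.01 without Ctrl PIP 2. Sting1, the adaptor of cytosolic DNA sensing, was at 134 and 143 CPM in Ctrl PIP 1 and 2, against 143 and 133 CPM in DMSO 1 and 2 (log2 fold change 0.00, SE 0.21), and was held within 2-fold. Heat shock and oxidative stress genes had a median of 0.09 (-0.12 without DMSO 1 and 0.44 without DMSO 2). In this list 5 of 29 lay above both DMSO libraries, beside 8.34% of all genes, Txnrd1 among them. In the unfolded protein response list the median was -0.09 (-0.32 without DMSO 1 and 0.37 without DMSO 2). In the xenobiotic response list it was -0.07 (0.43 without DMSO 1 and -0.26 without DMSO 2). The list of cell death genes had a median of -0.09 (-0.06 without DMSO 1 and -0.02 without DMSO 2). Held within 2-fold were 15 of these 26 genes (57.7%), beside 34.1% of all genes and 55.0% of those at 5 CPM or more. Bcl2l11, which encodes the death factor BIM, was at 181 and 177 CPM in Ctrl PIP 1 and 2, against 164 and 165 CPM in DMSO 1 and 2 (0.12, SE 0.17). Crebbp, the acetyltransferase CBP, was at 61.2 and 75.5 CPM in Ctrl PIP 1 and 2, against 142 and 38.6 CPM in DMSO 1 and 2, and the median of the acetyltransferases and bromodomain readers (-0.08) was 0.31 without DMSO 1 and -0.32 without DMSO 2.

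The cultures could also hold RNA of other cells, and their markers are given beside these values. In bulk RNA, fewer cells of a type and less RNA per cell cannot be told apart. Of 18 B cell markers 17 were below 0 and 8 lay below both DMSO libraries, beside 7.83% of all genes, with a median log2 fold change of -1.17. Their summed level was 729 and 690 CPM in Ctrl PIP 1 and 2, against 1083 and 698 CPM in DMSO 1 and 2, most of it Ighm. Pax5, the transcription factor of B cell identity, was at 0.960 and 0.482 CPM in Ctrl PIP 1 and 2, against 5.25 and 1.42 CPM in DMSO 1 and 2 (-2.21, SE 0.84, and -0.96 without DMSO 1). Of 10 genes of MHC class II antigen presentation 9 were below 0 and 5 lay below both DMSO libraries, beside the same 7.83% (median -0.79). Their sum was 216 and 190 CPM in Ctrl PIP 1 and 2, against 318 and 221 CPM in DMSO 1 and 2. H2-Aa, a class II chain, was at 5.64 and 1.85 CPM in Ctrl PIP 1 and 2, against 14.9 and 9.15 CPM in DMSO 1 and 2 (-1.68, SE 0.70). Cd74, the invariant chain, was at 55.6 and 38.8 CPM in Ctrl PIP 1 and 2, against 69.3 and 68.6 CPM in DMSO 1 and 2 (-0.55, SE 0.23).

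Myeloid and dendritic cell markers had 11 of 14 members below 0 and 5 below both DMSO libraries, beside 7.83% of all genes (median -0.93). Their summed level was 198 and 197 CPM in Ctrl PIP 1 and 2, against 220 and 203 CPM in DMSO 1 and 2, while the dendritic cell markers Xcr1 and Clec9a were at 0 in all 4 libraries. B cell, class II and myeloid markers kept a median below 0 under all 16 alternatives. With DMSO 2 as the only vehicle library the medians were -0.28, -0.25 and -0.31 in that order. CD4 T cell markers summed to 29.2 and 36.5 CPM in Ctrl PIP 1 and 2, against 60.9 and 21.7 CPM in DMSO 1 and 2. NK cell markers summed to 93.0 and 96.6 CPM in Ctrl PIP 1 and 2, against 84.3 and 99.4 CPM in DMSO 1 and 2, with Klra4 at 0. Most of that sum was Eomes (mean 69.2 CPM in Ctrl PIP and 68.4 CPM in DMSO), which is also in the naive and memory list. Of 12 NK cell markers tested 8 were above 0 and 4 below, beside 6946 of all 16750 genes above 0. Their median was 0.43, and it was -0.04 without Ctrl PIP 2 and 5.6e-04 without DMSO 1. Erythroid and platelet markers summed to 19.04 and 20.2 CPM in Ctrl PIP 1 and 2, against 55.9 and 16.9 CPM in DMSO 1 and 2, with Slc4a1 at 0. Stromal and endothelial markers summed to 156 and 158 CPM in Ctrl PIP 1 and 2, against 209 and 120 CPM in DMSO 1 and 2, with Cdh5 and Ccl21a at 0. Their part in the values of Irf5, S100a6, Wdfy4 and Dntt was not tested.

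**Figure D5:**
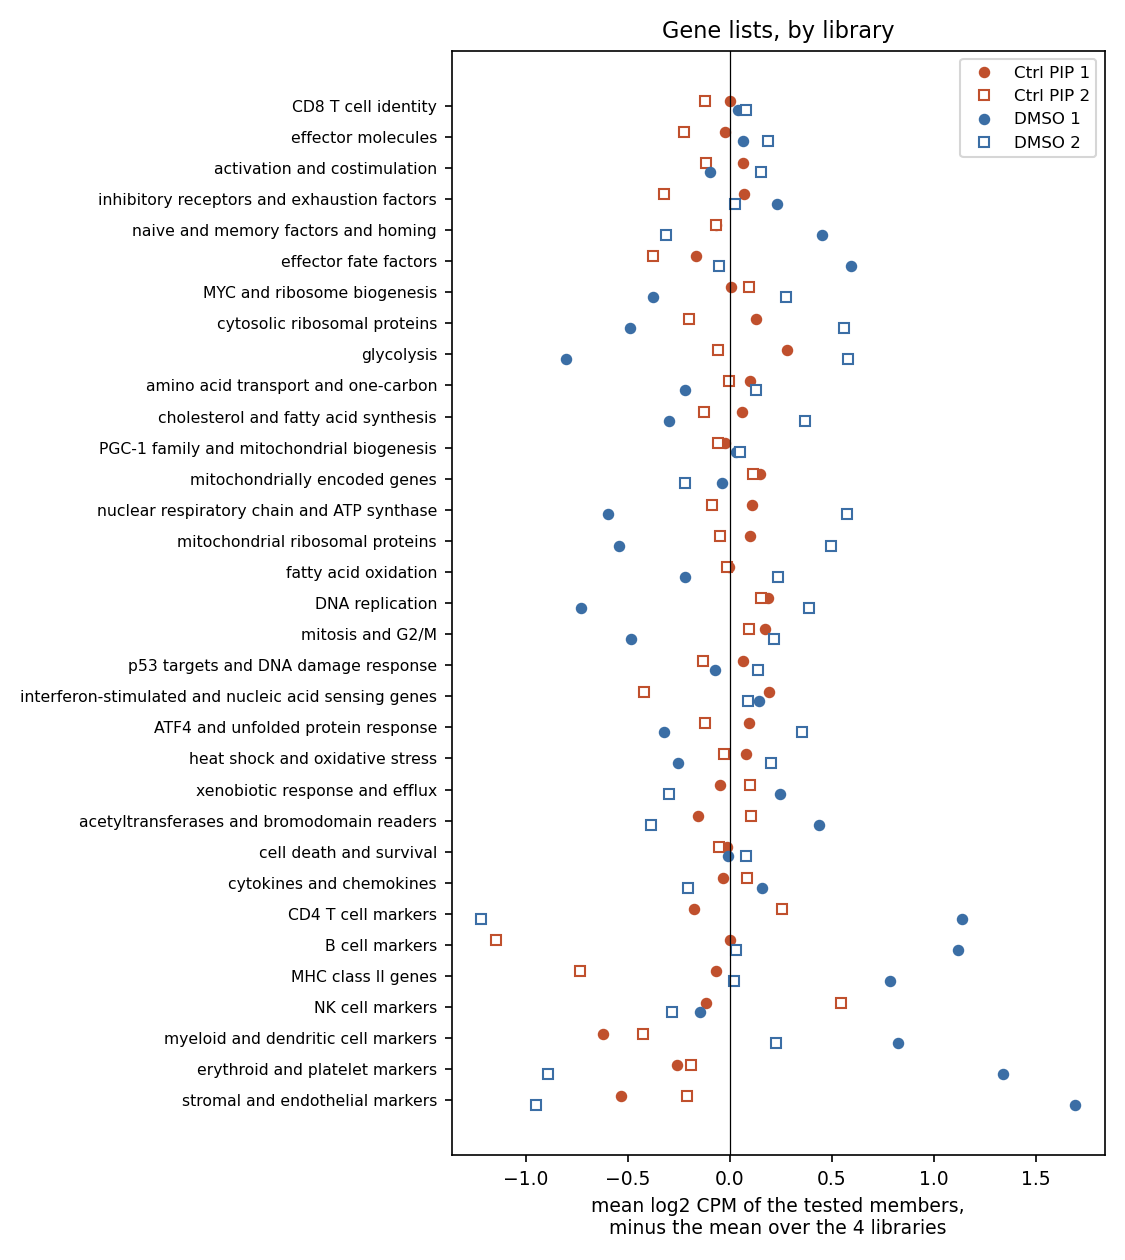
For each of 33 gene lists, the mean log2 CPM of its tested members in each library, minus the mean over the 4 libraries (x axis, log2 units). In the lists of ribosomal, glycolytic and respiratory genes both Ctrl PIP libraries lie between DMSO 1 and DMSO 2. In the mitochondrially encoded and NK cell lists both lie to the right of both DMSO libraries. Both lie to the left in the lists of CD8 identity, effector molecules, effector fate, PGC-1 and cell death. The same holds for the B cell, class II and myeloid lists.

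Set beside the other compounds against both DMSO libraries as 1 group, Ctrl PIP had the smallest differences. At 5 CPM or more the median absolute log2 fold change was 0.115 for Ctrl PIP, 0.217 for EnPGC-1 and 0.251 for SGC-CBP30. This order did not hold against DMSO 1 alone. The median absolute difference from DMSO 1 was 0.402 and 0.320 for Ctrl PIP 1 and 2. It was 0.164 and 0.365 for EnPGC-1 1 and 2, and 0.170 and 0.222 for SGC-CBP30 1 and 2. From DMSO 2 it was 0.230 and 0.330 for Ctrl PIP 1 and 2. For EnPGC-1 1 and 2 it was 0.694 and 0.350, and for SGC-CBP30 1 and 2 it was 0.568 and 0.513. With both DMSO libraries, 100 genes (0.597%) were at an unadjusted p under 0.05 for Ctrl PIP, 438 (2.61%) for EnPGC-1 and 735 (4.39%) for SGC-CBP30. Each count was below the 837.5 of 16750 genes that this threshold would pass on average without any difference. That average takes the spread as alike in all groups. The common coefficient of variation was 16.5% between the Ctrl PIP libraries and 57.8% between the DMSO libraries. A count below 837.5 therefore does not show that no gene differed. For each compound edgeR's quasi-likelihood test called 0 genes. These 3 comparisons share their DMSO libraries, and the difference between the compounds was not tested.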

How the data were processed

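RNA-seq of 8 libraries was used, 4 of them in the comparison. RNA was purified on RNeasy columns and made into libraries with a stranded poly(A) kit, per the labels' protocols. The authors deposited whole-number counts per gene (45777 Entrez IDs) and regularized log2 values, the latter used in 1 alternative. Names in the header of the deposited log2 table are shifted left by 1 column, so columns were read by position. HISAT2, StringTie, DESeq2 and mm10 are named in the submitters' processing notes. No source used here gives their versions, the counter or its strand setting. Total counts ranged from 38890043 to 55491261 per library. No replicate libraries were identical, and each counted as 1 replicate.

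The test on the counts was edgeR's quasi-likelihood test (edgeR 4.0.16, R 4.3.3), two-sided, with TMM normalization, filterByExpr by group, all 8 libraries, group means, no covariate and Benjamini-Hochberg adjustment over 16750 genes. This left 4 residual degrees of freedom, which also set the 95% intervals. These are not the test's own intervals and can be wider, as for Npas4, or narrower, as for Gm38960. Symbols, types and positions came from RefSeq (GRCm38.p6, called mm10), which matched 99.8% of IDs, and transcript lengths from GENCODE for 92.2% of the genes tested. Lists were 26 pathways and 7 sets of markers of other cells. Lists, members and tests were chosen with earlier results of these data known. Named genes were the 10 per direction of smallest p at 5 CPM or more in the group on top and without overlap, the first 2 members and the 2 of smallest p of each list, the 10 of highest level with an interval within 2-fold, genes with at least 20 counts in both libraries of 1 group and 0 in the other, and the PGC-1 family; the text gives those that carry a group, and any other gene serves as an example chosen after its values were seen. Alternatives were DESeq2's size factors and Wald test (DESeq2 1.42.0), other filters, a replicate block, only the 4 libraries, length and GC offsets (mgcv 1.9.3), limma 3.58.1 on the deposited log2 values and each library left out. The tests were also run on simulated data, drawn with the same spread in all groups for each gene. Such data cannot show how the tests behave where the spread differs between groups, as it did here. Some genes that the naming rule covers are not reported here.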

Additional observations from a re-analysis of the deposited data

How the results depend on the processing

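With edgeR, 0 genes were called under every alternative, and DESeq2's Wald test called 2. The count at an unadjusted p under 0.05 (100) was 222 with DESeq2's Wald test, 39 with at least 1 CPM in 2 or more libraries, 38 with only the 4 libraries, 48 with length and GC offsets in those 4 and from 86 to 1365 with 1 library left out: 172 without Ctrl PIP 1, 86 without Ctrl PIP 2, 624 without DMSO 1 and 1365 without DMSO 2. The count of intervals within 2-fold (5714) was 150 with only the 4 libraries, 3291 with offsets in those 4, 15689 with limma on the deposited log2 values, which are shrunken, and from 1237 to 4396 with 1 library left out: 1237 without Ctrl PIP 1, 1532 without Ctrl PIP 2, 4396 without DMSO 1 and 3727 without DMSO 2. With length and GC offsets in all 8 libraries, where 15437 genes were tested, the count of intervals within 2-fold was 7443. It was 7212 with these offsets and the replicate block. The fits on only the 4 libraries have the fewest degrees of freedom. All fits with 1 library left out have the same number of residual degrees of freedom. Over the lists and alternatives, 63 medians moved beyond the spread between libraries and 465 did not, and for the named genes 167 values moved and 2165 did not. The cause was not tested.

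The labels do not say that replicate numbers mark a shared animal or batch, and deviations of same-numbered Ctrl PIP and DMSO libraries had a correlation of -0.56 over 9399 genes, so the numbers were not taken as pairs. The same correlation was 0.82 for DMSO with EnPGC-1, 0.41 for DMSO with SGC-CBP30, 0.43 for EnPGC-1 with SGC-CBP30, -0.59 for Ctrl PIP with EnPGC-1 and -0.16 for Ctrl PIP with SGC-CBP30. With the replicate block, 0 genes were called, 148 were at an unadjusted p under 0.05 and 5018 had an interval within 2-fold. The block with offsets gave 182 genes at an unadjusted p under 0.05, and the block on only the 4 libraries gave 48, with 0 intervals within 2-fold. With the Ctrl PIP numbers exchanged, chosen after seeing the data, the block on the 4 libraries gave 0 called genes, 108 at an unadjusted p under 0.05 and 0 intervals within 2-fold. The common coefficient of variation was 16.5% between the Ctrl PIP libraries and 57.8% between the DMSO libraries and 41.5% over all 8 libraries. Of the 100 genes at an unadjusted p under 0.05, 73 averaged under 1 CPM, where few counts limit the precision further.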

Other observations

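Some gene families, chosen after their values were seen, are given as values only; the immediate-early family shares several Egr and Nr4a genes with the activation and exhaustion lists. Of 23 immediate-early genes tested, 21 had a log2 fold change below 0 in Ctrl PIP against DMSO, as did 9778 of all 16750 genes, and 5 lay below both DMSO libraries, beside 7.83% of all genes, with a median of -0.27; Npas4 lay above both. Egr1, a transcription factor induced by receptor signalling, was at 53.3 and 34.9 CPM in Ctrl PIP 1 and 2, against 61.6 and 60.0 CPM in DMSO 1 and 2 (-0.46, SE 0.24). Fosb, a partner in AP-1, was at 1.2002 and 1.89 CPM in Ctrl PIP 1 and 2, against 8.87 and 2.05 CPM in DMSO 1 and 2. Jun was at 22.9 and 28.4 CPM in Ctrl PIP 1 and 2, against 61.2 and 21.3 CPM in DMSO 1 and 2, so that DMSO 1 was the highest library in both of these genes.

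Of 198 T cell receptor segments tested, 50 (25.3%) lay below both DMSO libraries and 12 (6.06%) above both, beside 7.83% and 8.34% of all genes, with a median of -0.16 beside -0.05 over all genes. Their summed level was 2491 and 2122 CPM in Ctrl PIP 1 and 2, against 2547 and 2756 CPM in DMSO 1 and 2. Trbv13-1, a variable segment of the beta chain with close relatives, was at 26.8 and 22.9 CPM in Ctrl PIP 1 and 2, against 30.4 and 31.6 CPM in DMSO 1 and 2 (-0.32, SE 0.19). Of 32 immunoglobulin segments, 28 were below 0 and 11 lay below both DMSO libraries, beside 7.83% of all genes (median -1.13). Histone genes, whose main messages carry no poly(A) tail, had a median of 0.03. Of 71 members 58 lay between the DMSO libraries, beside 57.6% of all genes and 67.8% at 5 CPM or more. Long non-coding RNAs had a median of -0.17 over 1798 genes tested. The larger mitochondrial ribosomal RNA, mt-Rnr2, was at 971 and 866 CPM in Ctrl PIP 1 and 2, against 1089 and 1075 CPM in DMSO 1 and 2 (-0.24).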
